A study of Mus musculus with 4 samples.

Results

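The Myc, Max and Mxd network is a set of 10 mouse genes here, Myc, Mycn, Mycl, Max, Mxi1, Mnt, Mlx, Mga, Mxd1 and Mxd4, out of 21887 protein-coding genes. The genes were chosen by name, and all 10 were found in the gene table of RefSeq for GRCm38.p6, whose coordinates are those of mm10. At each of them, every Ruvbl2 CUT&Tag peak that touched the gene or 20 kb on either side was taken from 4 peak lists. In CUT&Tag an antibody directs a transposase to the chromatin it binds, and enriched stretches of the genome are called as peaks. The LSC libraries, replicates 1 and 2, came from leukaemia stem cells of Nup214fl/+ mice with leukaemia driven by the fusion oncogene MLL-AF9, sorted as Lin-Sca-1-c-Kit+ cells that were also CD16/32+CD34+. The HSC libraries, replicates 1 and 2, came from haematopoietic stem cells sorted as CD48-CD150+LSK from Nup214fl/+ mice for which the labels name no fusion. The label for cell type reads haematopoietic stem cell in all 4 libraries, and the groups were taken from the titles. All cells came from bone marrow and carried a floxed allele of Nup214, and each library used 2000 to 5000 cells. The LSC gate also describes granulocyte-monocyte progenitors, so maturation and leukaemia cannot be told apart between the groups. The labels do not say whether the replicates of a group came from separate animals.

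Myc family proteins bind DNA only as dimers with Max, at a short palindromic site called the E-box, and activate growth and biosynthesis genes. The Mxd proteins, Mxi1, Mnt and Mga take the place of Myc as partners of Max, and their dimers repress. Mlx is a Max-like protein that pairs with the glucose-sensing Mondo factors and with some Mxd proteins and Mnt. Ruvbl2 is an ATPase of the TIP60/p400 and INO80 chromatin complexes. TIP60 is among the cofactors Myc brings to its targets, and Myc is a common driver of growth in MLL-fusion leukaemia.

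The promoter table held 11 annotated starts for 9 of the 10 members and had no entry for Myc. The sequences below run from 250 bases before to 30 bases after the start, 5′ to 3′ on the strand of the gene, from RefSeq, build GRCm38.p6. They are shown because Mnt and Mga carried strong peaks at the start in all libraries, Mxd1 and Mxd4 in some, and because Mnt, Max, Mlx and Mxd4 hold the E-box. Capitals mark the E-box CACGTG, which reads the same on both strands and was the only motif searched.
Mnt (chr11:74830674-74830953, plus strand): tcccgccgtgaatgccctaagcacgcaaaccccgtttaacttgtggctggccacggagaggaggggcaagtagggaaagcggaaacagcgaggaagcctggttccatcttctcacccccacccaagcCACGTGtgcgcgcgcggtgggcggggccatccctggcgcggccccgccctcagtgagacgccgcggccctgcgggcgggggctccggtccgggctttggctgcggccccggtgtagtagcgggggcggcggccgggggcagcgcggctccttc
Mga (chr2:119896978-119897257, plus strand): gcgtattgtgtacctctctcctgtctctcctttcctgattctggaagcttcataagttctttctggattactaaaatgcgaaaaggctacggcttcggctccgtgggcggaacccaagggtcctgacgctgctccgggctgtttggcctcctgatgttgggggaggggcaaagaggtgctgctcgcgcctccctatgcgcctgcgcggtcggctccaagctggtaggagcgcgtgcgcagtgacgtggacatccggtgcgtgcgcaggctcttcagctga
Mxd1 (chr6:86669130-86669409, minus strand): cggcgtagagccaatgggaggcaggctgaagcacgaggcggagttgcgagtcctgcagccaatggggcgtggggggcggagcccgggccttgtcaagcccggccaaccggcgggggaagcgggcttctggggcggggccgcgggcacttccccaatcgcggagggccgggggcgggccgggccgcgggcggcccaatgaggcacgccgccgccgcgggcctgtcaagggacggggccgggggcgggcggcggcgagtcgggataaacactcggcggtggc
Mxd4 (chr5:34187681-34187960, minus strand): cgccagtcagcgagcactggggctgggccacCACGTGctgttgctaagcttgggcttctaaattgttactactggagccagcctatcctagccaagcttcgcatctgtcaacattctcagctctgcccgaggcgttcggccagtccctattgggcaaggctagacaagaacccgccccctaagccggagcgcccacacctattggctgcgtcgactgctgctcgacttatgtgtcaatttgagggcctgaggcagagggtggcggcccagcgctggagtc
Max (chr12:76962219-76962498, minus strand): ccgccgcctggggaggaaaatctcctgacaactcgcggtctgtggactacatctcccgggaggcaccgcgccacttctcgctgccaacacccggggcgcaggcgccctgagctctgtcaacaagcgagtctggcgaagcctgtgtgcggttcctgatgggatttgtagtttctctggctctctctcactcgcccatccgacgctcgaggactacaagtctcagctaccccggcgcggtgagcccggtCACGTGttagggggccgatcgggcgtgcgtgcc
Mlx (chr11:101087040-101087319, plus strand): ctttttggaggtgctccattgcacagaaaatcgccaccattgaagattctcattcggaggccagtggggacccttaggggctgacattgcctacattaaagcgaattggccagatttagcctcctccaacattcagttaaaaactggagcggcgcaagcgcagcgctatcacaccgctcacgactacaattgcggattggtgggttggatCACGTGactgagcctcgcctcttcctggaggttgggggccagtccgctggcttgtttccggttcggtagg
The E-box stood in the windows of Mnt, Mlx, Mxd4 and Max, which are 4 of the 9 members with a start, and began 123, 40, 219 and 3 bases before the start. Over all 21263 protein-coding starts, 1593 windows of the same length (7.49%) held it. A match is a description of the letters, not of a bound factor. The windows of Mga, Mxd1, Mycn, Mycl and Mxi1 held no match.

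The deposited lists held 216077 and 210541 peaks in LSC replicates 1 and 2, and 161655 and 286107 in HSC replicates 1 and 2. The lists give no read totals, and the depth of sequencing is therefore unknown. Peaks were ranked within each library by the deposited −log10 p, and the 20000 strongest of each library are called listed peaks. Ranks and folds belong to a peak within its own list, and lists of different lengths give ranks that show no change between libraries. The weakest listed peak had a fold over the library's background of 28.4 and 18.2 in LSC replicates 1 and 2, and 22.7 and 12.7 in HSC replicates 1 and 2. Replicate 1 of each group had narrower peaks (median 332 bp in LSC and 394 bp in HSC) than replicate 2 (452 bp and 461 bp). Replicate 1 libraries also had 0.942% (LSC) and 0.918% (HSC) of their peaks on the Y chromosome, against 0.0124% (LSC) and 0.00561% (HSC) in replicate 2. Peak names began with RUVBL2 in both replicate 1 lists and with R-Cut in both replicate 2 lists. The cause of these differences by replicate number was not tested. Loci of 6 stem cell markers had no listed peak at a gene end in any of the 4 libraries. Of 6 granulocyte-monocyte progenitor loci, 3 and 4 were listed in LSC replicates 1 and 2, and 4 and 4 in HSC. Over all genes the shares were 11% and 25.5% in LSC, and 10.6% and 25.1% in HSC. For 6 loci, a count of 0 is near these shares. With 6 loci per set, these counts cannot tell the sorted populations apart, and a peak does not measure expression. The secondary antibody was goat anti-rabbit, the host of the antibody to Ruvbl2 is not stated in the labels, and no library without that antibody was used here. An exact two-sided permutation test of 2 libraries against 2 cannot give a p below 0.333, so no test between groups was made.

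The windows of the 10 genes held 377 peaks, of which 76 were listed. LSC replicates 1 and 2 contributed 105 and 84 peaks, with 15 and 21 listed, and HSC replicates 1 and 2 contributed 64 and 124, with 15 and 25 listed. The number of peaks thus differed more within HSC than between the groups. All 10 genes had a peak of some strength in every library, which 92.5% of all protein-coding genes had too, so this share is near the background. Listed peaks were less common. Mnt, Mga, Mxd1, Mxd4 and Mxi1 had a listed peak in their window in all 4 libraries, 5 of 10 members beside 25.8% of all genes, whereas Mycn had none in any library. Such peaks need not lie at the same place or at the member. At Mxd1, the listed peaks of LSC replicate 1 (ranks 10356, 13518 and 15811) did not lie at the start, unlike those of the other libraries. By library, 7 and 8 members had a listed peak in the window in LSC replicates 1 and 2, and 6 and 9 in HSC replicates 1 and 2, beside 54%, 59.5%, 51.6% and 59.6% of all genes in that order. None had one in both LSC and neither HSC library, beside 3.02% of genes, or in both HSC and neither LSC library, beside 2.46%. Windows differ in length, from 45021 bp at Myc to 137627 bp at Mga, and longer windows have more room for peaks.

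**Figure D1:**
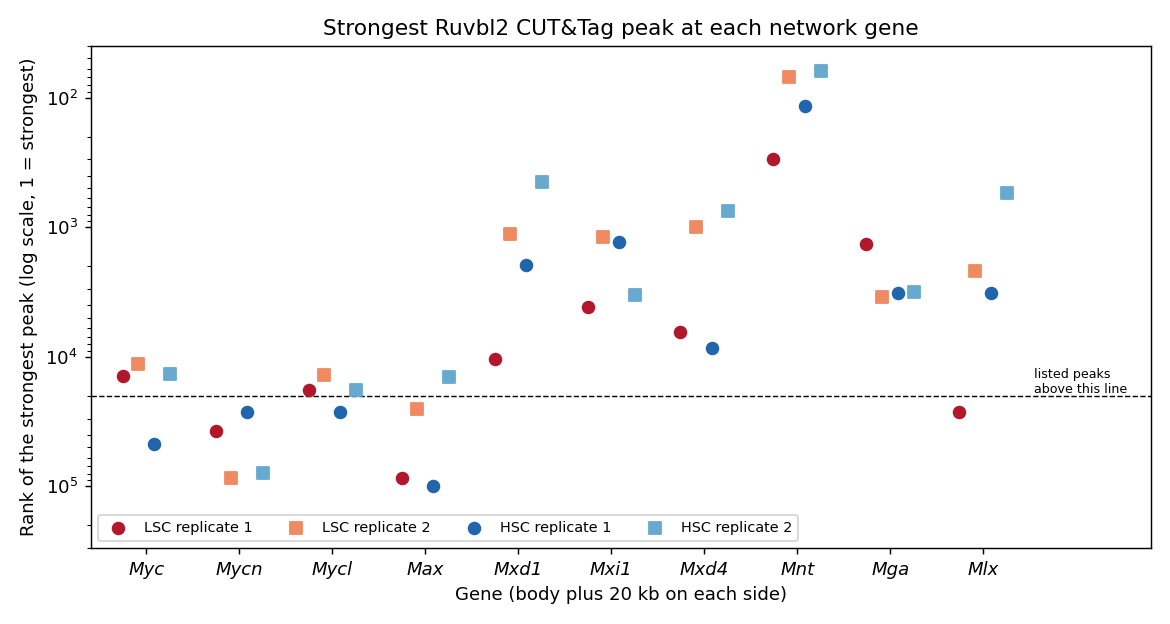
Rank of the strongest peak within each gene or its 20 kb flanks, on a log axis with the strongest at the top, for LSC (red) and HSC (blue) libraries; circles are replicate 1 and squares replicate 2. Mnt ranks between 62 and 296 in every library, while Mycn stays below the dashed line at rank 20000 in every library.

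Mnt was the member with the strongest signal in every library. It encodes the Max partner that is expressed in most tissues and represses through Sin3 corepressors. The gene lies on chromosome 11 (74830806 to 74845725, plus strand). Its strongest peak ranked 296 and 70 in LSC replicates 1 and 2, and 116 and 62 in HSC replicates 1 and 2. The folds of these peaks were 126 and 137 in LSC, and 115 and 113 in HSC. The groups overlapped in rank. Among the 636 protein-coding genes with a listed peak at an annotated end in all 4 libraries (2.91% of all), Mnt stood in place 17 by its worst rank. It was the only member among them, 1 of 10. Mxd1 and Mxd4 joined it when LSC replicate 1 was left out (3 members), and Myc when HSC replicate 1 was left out (2 members). A rule with fewer libraries is easier to meet, and its share over all genes was not computed.

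The Mnt signal had 2 parts that flanked the start. An upstream peak had its summit 736 and 577 bp before the start in LSC replicates 1 and 2, and 587 bp before it in HSC replicate 1. A downstream peak had its summit 1220 and 1141 bp after the start in LSC, and 1083 and 1150 bp after it in HSC. In HSC replicate 2 a single peak of 5594 bp, from 74827869 to 74833462, spanned both places, and it was the 17th widest of that library. The upstream peak ended at 74830961 in LSC replicate 1, 74830874 in LSC replicate 2 and 74830919 in HSC replicate 1, close to the start at 74830924. The next listed peak began at 74831646, 74831260 and 74831702 in those libraries. A gap with no listed peak therefore followed the start in these 3 libraries. The E-box of Mnt lay inside a peak in all 4 libraries.

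A further Mnt site lay inside the gene. Its summits were 7151 and 6645 bp after the start in LSC replicates 1 and 2, and 6999 bp after it in HSC replicate 2. They ranked 5270 and 705 in LSC, and 196 in HSC replicate 2. HSC replicate 1 had no peak between 74836350 and 74839708, the stretch these peaks cover together. A peak beside Mettl16, the upstream neighbour that encodes an RNA methyltransferase, was listed in LSC replicate 2 alone (rank 1946).

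**Figure D2:**
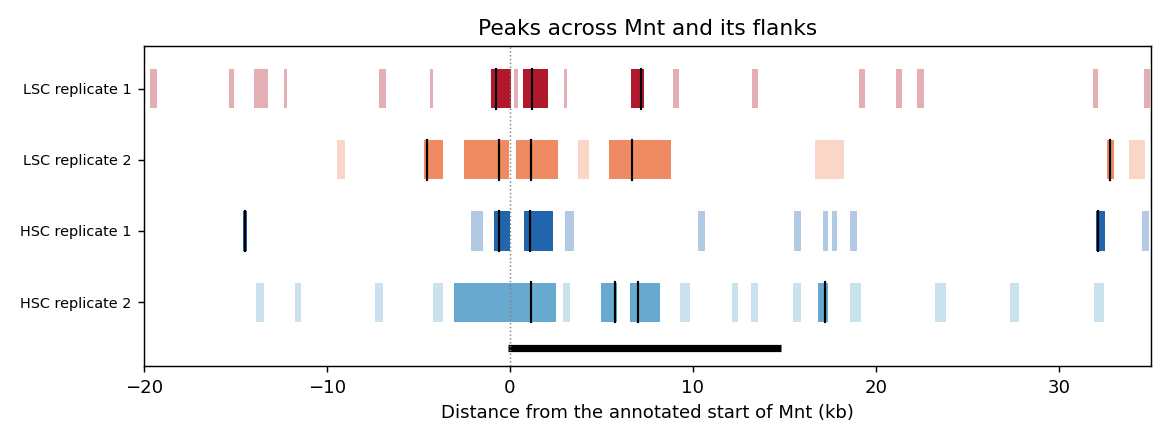
Peaks in each library by distance from the annotated start of Mnt in kb; dark bars are listed peaks with the summit as a black line, pale bars are weaker peaks, and the bottom bar is the gene. Listed peaks lie on either side of the start in LSC and HSC, and the peak inside the gene near 7 kb is missing in HSC replicate 1.

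Mga was the other member with a listed peak at its start in every library. It encodes the largest Max partner, with a T-box as well as a bHLHZip domain, and belongs to a variant Polycomb complex. The gene lies on chromosome 2 (119872503 to 119970129, plus strand), and its annotated start at 119897228 is inside these limits. The start peak ranked 1346 and 3462 in LSC replicates 1 and 2, and 3199 and 3162 in HSC replicates 1 and 2. Its folds were 88.2 and 30.5 in LSC, and 46.2 and 20.96 in HSC. The summits lay 184 and 177 bp after the start in LSC, and 169 and 202 bp after it in HSC, so they fell closer together than those of any Mnt site. LSC replicate 1 also had a narrow peak of 233 bp at the outer end of the gene (119872075 to 119872307, rank 1681, fold 83.8), where no other library had a listed peak. A site beyond the 3′ end of Mga, inside the next gene Mapkbp1, was listed in both replicate 2 libraries, at rank 16175 in LSC and 5795 in HSC. Counting annotated starts, 2 of 9 members (Mnt and Mga) were listed in all 4 libraries, beside 2.84% of 17492 genes, and Mga stood in place 131 of 497. Without LSC replicate 1 the count was 3, with Mxd1 added, and the share over all genes for that looser rule was not computed. A start peak of any strength in all 4 libraries was found at Mga, Mnt, Mxd4 and Max, 4 of 9 members beside 10.7% of genes.

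The Mxd repressors were listed at the start mostly in replicate 2. Mxd1 (chromosome 6, 86647044 to 86669234, minus strand), whose protein replaces Myc as cells differentiate, had its start peak at rank 1127 in LSC replicate 2, and at ranks 1950 and 447 in HSC replicates 1 and 2. LSC replicate 1 had no peak within 1000 bp of that start. Its nearest upstream peak lay at 86671031 to 86671457 (rank 42258), with the summit 2058 bp before the start. The listed summits were 178 bp before the start in LSC replicate 2, and 443 and 361 bp before it in HSC. The folds were 47.4 in LSC replicate 2, and 51.4 and 44.5 in HSC.

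Mxd4 (chromosome 5, 34176580 to 34187710, minus strand) is a further repressor of the Mxd group. Its start was listed in the replicate 2 libraries, at rank 1485 and fold 42.8 in LSC, and rank 748 and fold 36.7 in HSC. The LSC replicate 2 peak was 2491 bp wide. The start peaks of the replicate 1 libraries were far weaker, at rank 58599 in LSC and 108394 in HSC. The HSC replicate 1 library had instead a listed peak at the 3′ end of the gene (rank 10752). In both LSC libraries the strongest peak in the Mxd4 window was not at Mxd4. It lay at the shared higher-coordinate end of Haus3 and Poln, which encode an augmin subunit and a DNA polymerase. It ranked 6442 and 1002 in LSC replicates 1 and 2, and a peak at that end ranked 19092 in HSC replicate 2.

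Mxi1 (chromosome 19, 53310128 to 53373293, plus strand) encodes the Mxd protein also called Mxd2 and has 3 annotated starts. A listed peak lay within 1000 bp of a start in HSC replicate 2 alone (rank 13637). The site in its window that all libraries shared lay instead at the higher-coordinate end of Smndc1, a splicing factor gene downstream. That peak ranked 4095 and 2094 in LSC replicates 1 and 2, and 1305 and 3312 in HSC replicates 1 and 2, with folds of 63.9 and 37.3 in LSC, and 55.8 and 20.6 in HSC. Its summits were at 53390719 and 53390901 in LSC, and at 53390747 and 53390828 in HSC. Inside Mxi1 each library had listed peaks of its own, and none overlapped a listed peak of another library. The strongest of these, at 53318168 to 53319161, ranked 1198 in LSC replicate 2.

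Max and Mlx, the partner proteins that bind no DNA without a dimer, had weaker start peaks than Mnt and Mga. At Max (chromosome 12, 76937269 to 76962323, minus strand) a peak lay across or beside the start in all 4 libraries. It ranked 85915 and 52946 in LSC replicates 1 and 2, and 102830 and 15189 in HSC replicates 1 and 2, so it was listed in HSC replicate 2 alone. The folds were 13.4 and 11.9 in LSC, and 10.9 and 13.5 in HSC. The summits lay 19 bp before and 168 bp after the start in LSC, and 139 bp after and 62 bp before it in HSC. Max thus had a peak near its start in each library, listed or not. HSC replicate 2 had a second listed peak at the start, at rank 14391 with its summit 1051 bp after the start. The E-box of Max lay inside the peak across or beside the start in all but HSC replicate 1.

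Mlx (chromosome 11, 101086707 to 101092207, plus strand) sits in a crowded stretch between Coasy, a coenzyme A synthesis gene, and Psmc3ip. A start peak was listed in LSC replicate 2 (rank 7615, fold 23.5, summit 68 bp before the start), and it covered the E-box. The other 3 libraries had no listed peak at that start. HSC replicate 1 had a listed peak at the other end of Mlx, which Psmc3ip overlaps (rank 3199, fold 46.2). The strongest peaks of both replicate 2 libraries had their summits inside Coasy, at 101083185 in LSC (rank 2188) and 101083178 in HSC (rank 541). The HSC peak ran from 101080995 to 101083572 and so reached beyond Coasy into the neighbouring gene Hsd17b1.

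**Figure D3:**
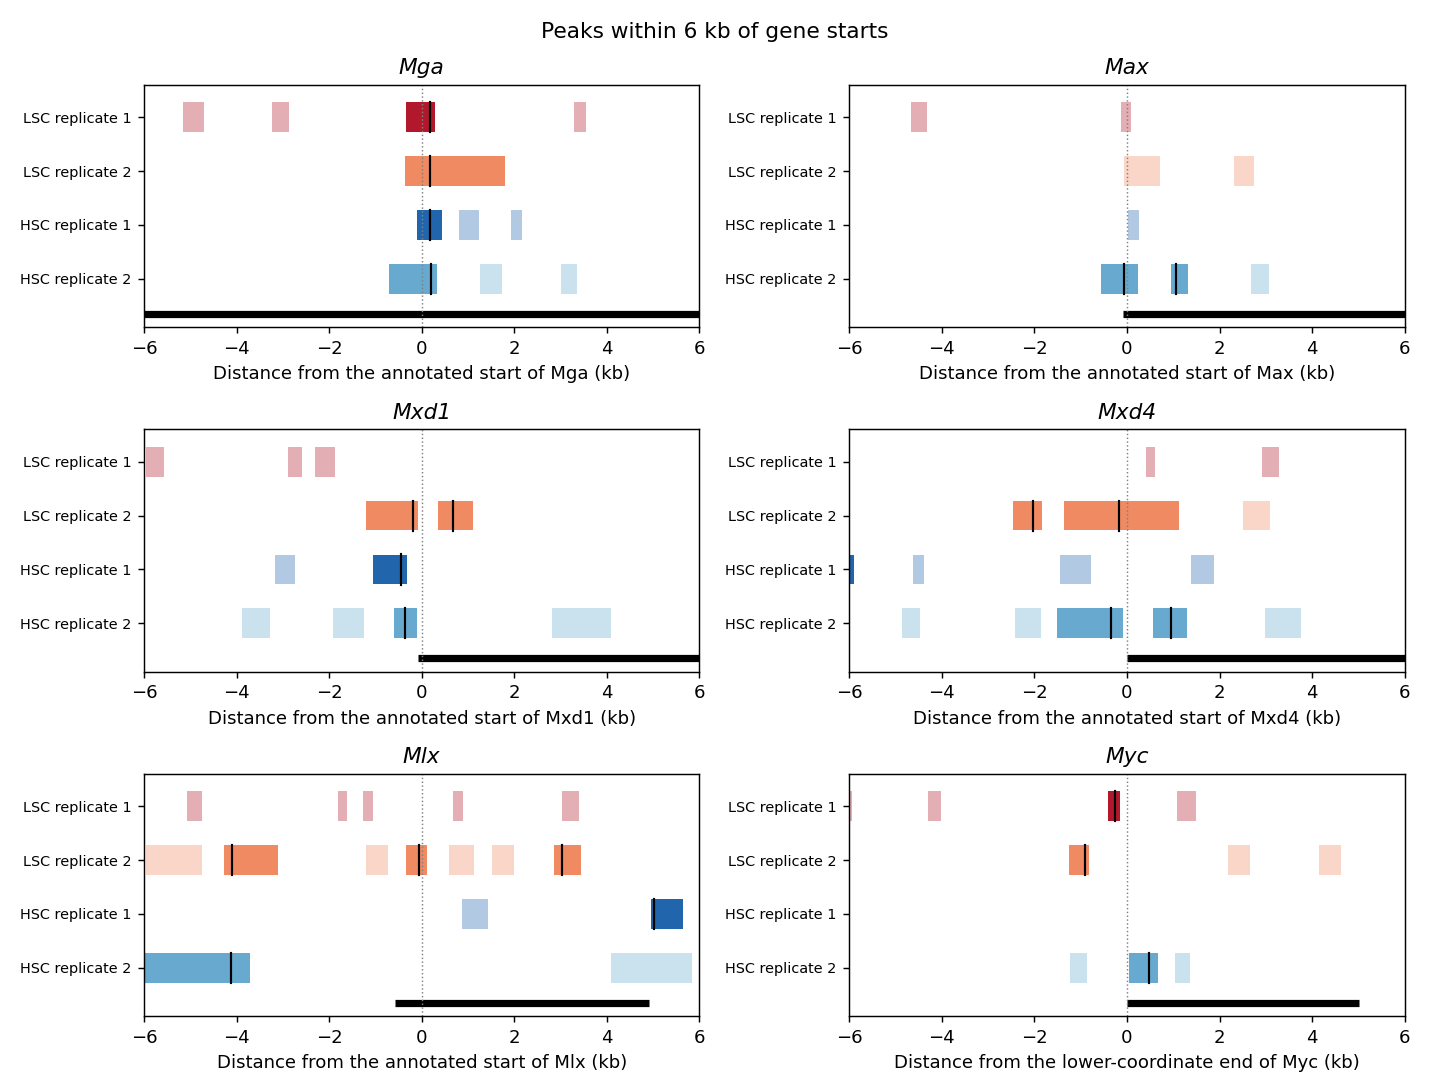
Peaks within 6 kb of the annotated starts of Mga, Max, Mxd1, Mxd4 and Mlx and of the lower-coordinate end of Myc, by distance in kb; dark bars are listed peaks with the summit as a black line, pale bars are weaker peaks, and the bottom bar is the gene. The Mga peaks line up in LSC and HSC, while the listed Myc peaks of LSC replicate 1, LSC replicate 2 and HSC replicate 2 lie at 3 separate places.

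The windows of the Myc family genes held 3 listed peaks at Myc, 4 at Mycl and 0 at Mycn over the 4 libraries, beside 2 at Max and between 7 and 16 at the other members. Myc (chromosome 15, 61985341 to 61990361) had a listed peak near its lower-coordinate end in both LSC libraries and in HSC replicate 2. The ranks were 14070 and 11424 in LSC replicates 1 and 2, and 13637 in HSC replicate 2, with folds of 33.3, 21.2 and 13.8 in that order. These peaks did not overlap. They lay at 61984937 to 61985194 in LSC replicate 1, at 61984099 to 61984522 in LSC replicate 2, and at 61985387 to 61986019 in HSC replicate 2. HSC replicate 2 had in addition a weak peak at 61984114 to 61984483 (rank 98865) that fell within the LSC replicate 2 peak. HSC replicate 1 had 2 peaks in the whole window, at ranks 126534 and 46748, both beyond the higher-coordinate end of Myc. A listed peak at a Myc end in both LSC libraries and in 1 of 2 HSC libraries does not separate the groups, since the HSC libraries differed from each other.

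Mycn (chromosome 12, 12936093 to 12941836, minus strand), the paralogue known from neural and stem cells, had no peak at its ends or inside the gene in any library. Its strongest flanking peaks ranked 37054 and 86417 in LSC replicates 1 and 2, and 26708 and 78377 in HSC replicates 1 and 2. Mycl (chromosome 4, 122995588 to 123002490, plus strand), the third paralogue, had a start peak in LSC replicate 1 alone, too weak to be listed (rank 79636). Its listed peaks were 1 in LSC replicate 1 (rank 18131), 2 in LSC replicate 2 (ranks 13869 and 15021) and 1 in HSC replicate 2 (rank 18013). These lay before, inside and after the gene, and none of them overlapped another.

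The full lists were merged to see which regions the libraries shared. Merging the full lists gave 263 regions in the 10 windows, of which 195 (74.1%) came from a single library, beside 84.2% of all 721154 merged regions. Regions found in all 4 libraries numbered 5 (1.9%), beside 0.595% of all regions. They were the starts of Mnt, Max, Mga and Mxd4 and the higher-coordinate end of Smndc1. The strands of neighbouring genes were not used, so that end may be a start. Regions found in 3 or 4 libraries numbered 28 (10.6%), beside 2.96% of all regions. Of these 28, 17 lay within 1000 bp of the member gene and 11 lay farther out in its flanks, 5 of them around Mnt and 3 around Mlx. By window, Mnt held 8 of its 28 regions in that class, Mxi1 8 of 43, Mlx 4 of 19, Mga 3 of 40, Mxd4 3 of 27, Max 1 of 22 and Mxd1 1 of 25. Myc, Mycn and Mycl held 0 of 19, 0 of 16 and 0 of 24, which at these numbers is not set apart from the share over all regions or from Max and Mxd1. The regions of a gene share libraries and neighbours and are not replicates, so this is a description. The background also takes in regions outside gene windows. Member windows had a median of 1.61 and 1.21 peaks per 10 kb in LSC, beside 1.07 and 1.08 over all genes. In HSC the medians were 0.973 and 1.62, beside 0.723 and 1.43. Whether this density bears on the shares was not tested. Of the 23 regions found in exactly 3 libraries, HSC replicate 1, the shortest list, was the missing library in 10. The count in all lists was 11 and 9 without LSC replicates 1 and 2, and 15 and 8 without HSC replicates 1 and 2. The same counts over all regions were not computed.

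The comparison of LSC with HSC gave no member that was listed at a gene end in both libraries of either group and in neither of the other. The count was 0 of 10 for LSC, beside 0.932% of all genes, and 0 of 10 for HSC, beside 0.873%. At annotated starts it was again 0 of 9 in either direction, beside 0.835% and 0.789% of genes. The number of listed starts differed more by replicate number than by group, as it did over all genes. They numbered 2 of 9 in LSC replicate 1 and 3 of 9 in HSC replicate 1, beside 9.54% and 9.03% of all genes, and 5 of 9 in LSC replicate 2 and 6 of 9 in HSC replicate 2, beside 24.8% and 24.1%. At gene ends 3 and 5 of 10 members were listed in LSC replicates 1 and 2, and 4 and 6 in HSC replicates 1 and 2, beside 11%, 25.5%, 10.6% and 25.1% of all genes. Within each replicate number, the LSC and HSC counts differed by 1 member. Start peaks of any strength were at 7 and 6 of 9 members in LSC replicates 1 and 2, and at 7 and 6 in HSC replicates 1 and 2, beside 35.3%, 50.8%, 28.1% and 54.8% of genes. None was at a start in both LSC and neither HSC library, beside 3.02%, or in both HSC and neither LSC library, beside 2.5%. At the level of regions, 7 were found in both LSC and neither HSC list (2.66%, beside 1.88% of all regions), and 10 in both HSC and neither LSC list (3.8%, beside 2.06%). Mixed pairs gave 9 regions for LSC replicate 2 with HSC replicate 2, 9 for LSC replicate 1 with HSC replicate 2, 3 for LSC replicate 1 with HSC replicate 1 and 2 for LSC replicate 2 with HSC replicate 1. These are 3.42%, 3.42%, 1.14% and 0.76% of the members' regions, beside 3.47%, 2.75%, 1.28% and 1.38% of all regions for the same pairs in that order.

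In blood cells Myc is also controlled by enhancers far downstream of the gene, so peaks were counted from 500 kb before to 2000 kb after its lower-coordinate end. This stretch held 193 and 155 peaks in LSC replicates 1 and 2, with 12 and 8 listed. In HSC replicates 1 and 2 it held 126 and 269, with 23 and 11 listed. No rate over the whole genome was computed, so these counts do not show the stretch to be rich or poor in peaks. Listed peaks overlapped between libraries at 2 places. One lay 1720 kb after the Myc end (63704271 to 63705451). It was listed in LSC replicate 1 (rank 5054) and HSC replicate 2 (rank 9151), with a weak peak in HSC replicate 1 (rank 42697) and none in LSC replicate 2. The other, 1940 kb after it at Gsdmcl-ps, was listed in LSC replicate 2 (rank 18165) and HSC replicate 1 (rank 10752). Neither place was listed in both libraries of a group.

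**Figure D4:**
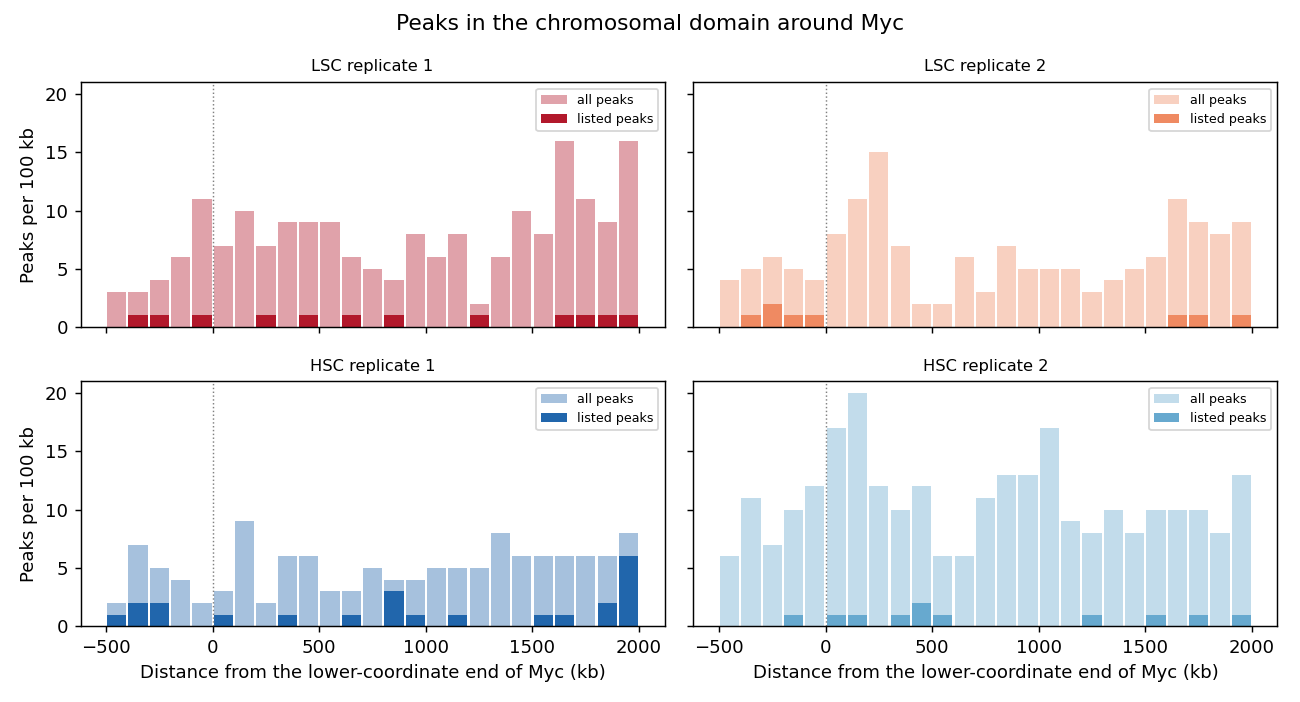
Peaks per 100 kb by distance from the lower-coordinate end of Myc, in LSC (top) and HSC (bottom); pale bars are all peaks and dark bars listed peaks. The counts of listed peaks are 12 and 8 in LSC replicates 1 and 2 and 23 and 11 in HSC replicates 1 and 2. No rate over the whole genome was computed for comparison.

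Other genes of the pathway were read from 4 lists, whose counts at gene ends stand beside 11% and 25.5% of all genes in LSC replicates 1 and 2, 10.6% and 25.1% in HSC replicates 1 and 2, and 2.91% in all 4 libraries. Of the 3 remaining network genes, Mxd3, Mlxip and Mlxipl, 2 and 1 were listed at a gene end in LSC replicates 1 and 2. In HSC replicates 1 and 2 the counts were 0 and 1, and none was listed in all 4 libraries. Mlxip, which encodes the Mondo partner of Mlx, had ranks of 407 and 52946 in LSC replicates 1 and 2, and 20248 in HSC replicate 2, with no end peak in HSC replicate 1. Of 17 Myc cofactor genes, 7 and 12 were listed in LSC replicates 1 and 2, and 6 and 10 in HSC replicates 1 and 2. Listed in all 4 were Hcfc1 (ranks 618 and 302 in LSC, 2121 and 300 in HSC), Actl6a (3211 and 834 in LSC, 5125 and 238 in HSC) and Ep400 (170 and 349 in LSC, 15948 and 541 in HSC). Hcfc1 is a host cell factor that binds Myc, Actl6a is a BAF and TIP60 subunit, and Ep400 is the p400 ATPase. At annotated starts, 5 of 15 cofactors, 1 of 8 genes for Myc stability and 1 of 19 Myc targets were listed in all 4. The count was 0 of 3 for the remaining network genes, and the share over all genes was 2.84%. Sin3a, the corepressor scaffold of Mxd and Mnt, was listed at a start in all 4, at ranks 259 and 136 in LSC and 757 and 147 in HSC. Ruvbl2 itself was listed at a start in all 4, at ranks 1634 and 867 in LSC and 6596 and 637 in HSC. Huwe1, a ubiquitin ligase for Myc, was too, at ranks 14244 and 4206 in LSC and 7838 and 8003 in HSC. Mlxip and these 3 genes were singled out after their values were seen.

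Of 9 genes that control Myc stability, 0 and 6 were listed at an end in LSC replicates 1 and 2, and 1 and 6 in HSC replicates 1 and 2, and none in all 4. The replicate 1 counts of this list are near the share over all genes. Of 24 known Myc target genes, 3 and 17 were listed in LSC replicates 1 and 2, and 6 and 17 in HSC replicates 1 and 2. The LSC replicate 1 count is again near the share over all genes. Fbl, the rRNA methyltransferase fibrillarin, and Gart, a purine synthesis gene, were listed in all 4. Fbl ranked 4237 and 354 in LSC, and 3953 and 2105 in HSC. Gart ranked 12017 and 1272 in LSC, and 167 and 665 in HSC. None of the genes in the 4 lists was listed at an end in both libraries of either group and in neither of the other. Over all genes the shares were 0.932% for LSC and 0.873% for HSC, so finding none is near the background. In all 4 lists but the first, which holds 3 genes, the replicate 2 libraries had more listed genes than the replicate 1 libraries of both groups.

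The base composition of the starts was the last feature compared. The start windows of genes listed in all 4 libraries had a median of 21 CG pairs (quartiles 13 and 27, 700 starts), against 11 (3 and 22, 20563 starts) in the other start windows. Mnt held 31 and Mga 21. Among the members with no start listed in all libraries, Mxd1 had 37, Max 27, Mycl 18, Mxd4 15, Mlx 15 and Mycn 13, and the 3 starts of Mxi1 had 15, 17 and 45. The part of base composition in these peaks was not tested.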

How the data were processed

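Peak lists of 4 libraries, 2 LSC and 2 HSC, were analysed as deposited. The submitters' processing notes name FastQC 0.11.5, Bowtie2 2.2.9, MACS2, ChIPseeker and the build mm10, and nothing here records the peak threshold or the treatment of duplicates. Each library has its own list. The deposited score is about 10 times the −log10 q, the deposited fold is the ratio of summit signal to the library's background, and the −log10 p and −log10 q of each peak are the authors' values for it. The lowest deposited −log10 q was 5.07 and 5.07 in LSC, and 5.31 and 5.58 in HSC.

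With Python 3.11.15 and pandas 2.3.3, peaks on the 19 autosomes, X and Y were ranked within each library by −log10 p, and the 20000 strongest were called listed. Overlap meant at least 1 bp, and gene end and start windows reached 1000 bp on each side. Shares over all protein-coding genes served as background, and no test was made. The code was tested on simulated lists. Named genes were all members, neighbours with an end in a member's window beside a peak, and listed-in-all or one-group genes of the pathway lists; Mlxip, Sin3a, Ruvbl2 and Huwe1 were added after their values were seen. Members and lists were chosen with earlier results of these data known. Alternatives covered list length, ranking by fold, window and flank sizes, a stricter q, overlap and leaving out each library. The start windows and the Myc domain were added after the data were seen. Depth is unknown, so no interval is given.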

Additional observations from a re-analysis of the deposited data

How the results depend on the processing

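Listed gene ends in all 4 libraries (1 member) became 2 with the 40000 strongest peaks, 4 with the full lists, 2 with annotated starts, an addition after the data were seen, and 0 when at least 50% of a peak had to lie in the window. With a library left out the count was 1 to 3, with 3 without LSC replicate 1. Listed starts in all 4 libraries (2 members) became 4 with the full lists and 1 with 50% overlap, and 2 to 3 with a library left out. LSC-only gene ends (0) gave 0 to 1 with a library left out, 1 without LSC replicate 2 or HSC replicate 2. HSC-only gene ends (0) became 1 with windows of 3000 bp, and 0 to 2 with a library left out, 2 without LSC replicate 2 or HSC replicate 1. The causes of these moves were not tested. Merged regions in all 4 lists (5) became 8 with flanks of 50 kb, and 8 to 15 with a library left out, where 3 lists are enough. LSC-only regions (7) numbered 1 in the gene body, 4 with flanks of 5 kb and 14 with flanks of 50 kb, and HSC-only regions (10) numbered 5 in the gene body. With a library left out, where 1 list of a group can be enough, they ranged over 9 to 71 and 15 to 78. Apart from annotated starts, shares over all genes or regions were not computed for these alternatives. A looser rule can raise the count of any gene set, so these moves cannot be read as particular to the members. Ranking by fold changed none of the 40 best ranks. Within a library, member peaks of equal fold had equal −log10 p, and both rose together. This alternative therefore could not change these ranks and is no separate check. No paired analysis was possible because the results come from no test and so no block could be fitted; the report gives the counts within each replicate number. Without read totals, a missing peak is no sign of absent binding.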
